A study of Mus musculus with 12 samples.

Results

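The 9 genes described here encode factors that sense a stalled ribosome, split it and destroy the unfinished protein: Nemf, Ltn1, Pelo, Hbs1l, Zfp598, Tcf25, Edf1, Ankzf1 and Abce1. They were chosen by their role in ribosome rescue and quality control and because Nemf was lower in the KO liver. All 9 were found among the 55487 genes of the count table, and all 9 passed the filter on low counts in every comparison. RNA was sequenced from 6 mice, a liver and a brain library each, with 3 mice labelled KO (mice A, C and F) and 3 labelled WT (mice B, D and E), which gives 4 groups of 3 libraries. KO mice lack Mettl5, the methyltransferase that modifies an adenosine of the small subunit's rRNA, through deletion of exon 2 of a floxed allele in the whole body by a CMV-driven Cre, in a line backcrossed to B6. For its RNA-seq, the legends of the study's volcano plots, pathways and T3 assay name heterozygous controls. The legend of a browser view names a +/+ littermate. WT therefore means here the libraries labelled WT. The study used mice of both sexes, from a few weeks to several months old, and the labels do not assign an age or sex to each mouse.

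Ribosomes stall on damaged or truncated mRNAs, and a following ribosome can then run into the stalled one. ZNF598 (gene Zfp598) and EDF1 recognise the collided pair. Pelota, its GTPase partner HBS1L and the ATPase ABCE1 separate the subunits. The large subunit keeps the unfinished chain, which NEMF marks with a C-terminal tail while it recruits the ubiquitin ligase Listerin (Ltn1). TCF25 directs ubiquitin chain formation, and ANKZF1 cuts the chain from its tRNA. Mutation of Nemf or Ltn1 in mice leads to neurodegeneration.

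The members lie on 8 chromosomes. Positions are those of mm10. Nemf (ENSMUSG00000020982.9) spans chr12:69310522-69357165 on the minus strand and Ltn1 (ENSMUSG00000052299.9) spans chr16:87376651-87432612 on the minus strand. Pelo (ENSMUSG00000042275.9) is the shortest gene, at chr13:115088355-115090186 on the minus strand. Of the genes for the other splitting factors, Hbs1l (ENSMUSG00000019977.16) lies at chr10:21295979-21368898 on the plus strand and Abce1 (ENSMUSG00000058355.8) at chr8:79683462-79711740 on the minus strand. The collision sensors Zfp598 (ENSMUSG00000041130.10) and Edf1 (ENSMUSG00000015092.9) lie on the plus strand at chr17:24669687-24682016 and chr2:25557847-25562082. Tcf25 (ENSMUSG00000001472.17) spans chr8:123373753-123403835 and Ankzf1 (ENSMUSG00000026199.17) spans chr1:75192151-75199387, both on the plus strand.

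Exons of 4 members overlap those of another gene. The 3′ end of Nemf shares 166 bp with Klhdc2 on the opposite strand, which is 1.57% of its 10549 bp of exon, and counting was by strand. For Pelo, 739 bp (46.2% of its exons) lie in Gm49395 on the same strand. Reads that fall in both genes may have been left uncounted, so the level of Pelo may be understated. Hbs1l also gives rise to a shorter protein that works with the mRNA-degrading exosome, and counts per gene do not separate the products.

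RefSeq promoter windows of GRCm38.p6, from 250 bases before to 50 bases after the start, were found for 9 of 9 members. The window of Nemf had 44.0% GC, the lowest of the members, and those of the others had 55.0% (Ltn1) to 72.3% (Edf1), beside a median of 52.7% over 32851 windows. Nemf is shown as the member with the largest difference in the KO liver, at chr12:69357127-69357426 on the minus strand, with a match to CATGCGC, the half-site of the factor NRF1, in capitals. Abce1 is shown at chr8:79711691-79711990 on the minus strand because its window held the most matches to TGACGT, the half-site of the cAMP response element, which are in capitals; 2 of its 3 matches overlap on opposite strands.
Nemf: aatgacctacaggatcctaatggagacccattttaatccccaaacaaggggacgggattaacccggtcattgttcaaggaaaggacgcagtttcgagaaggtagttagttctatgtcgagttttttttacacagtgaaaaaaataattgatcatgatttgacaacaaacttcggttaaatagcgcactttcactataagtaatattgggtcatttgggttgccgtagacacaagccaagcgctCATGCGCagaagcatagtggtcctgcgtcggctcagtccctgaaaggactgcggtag
Abce1: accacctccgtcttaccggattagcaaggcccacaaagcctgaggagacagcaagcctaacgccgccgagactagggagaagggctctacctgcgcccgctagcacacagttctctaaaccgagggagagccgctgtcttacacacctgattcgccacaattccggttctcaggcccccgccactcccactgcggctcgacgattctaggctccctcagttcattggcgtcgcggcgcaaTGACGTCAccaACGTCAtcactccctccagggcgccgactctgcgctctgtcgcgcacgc

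On both strands, CATGCGC was found in the windows of 2 of 9 members (Nemf and Hbs1l) and in 3.91% of all windows. TGACGT was found in 4 (Pelo, Hbs1l, Zfp598 and Abce1) and in 7.51% of all windows. CCAAT was found in 6 of 9 and in 37.4% of all. CCGGAAG, the core bound by ETS factors, was in the window of Edf1 alone among the members and in 8.86% of all windows. Neither CACGTG nor GAANNTTC, the E-box and a heat shock element, occurred in a member's window, and they were found in 7.15% and 7.86% of all windows. These letter matches are descriptions and show no binding.

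Library totals ranged from 14403309 to 21623180 counts. Levels are normalised read counts (CPM), which scale a count by the TMM-adjusted size of its library, and for the comparison of genotypes the libraries of each tissue were scaled together. Mettl5 was below every WT library in every KO library, at 3.85 ± 0.215 CPM against 10.5 ± 3.87 in liver and 3.70 ± 0.328 against 6.66 ± 2.14 in brain (SD, n = 3). The summed CPM of 8 hepatocyte markers was 82838 to 108343 in liver and 11.4 to 29.2 in brain, and that of 6 neuron markers was 1972 to 2434 in brain and 10.5 to 21.5 in liver. Mice E (WT) and F (KO) had at most 20 counts from Y-linked genes in a library, and each library of the other mice had at least 2112. A call is an adjusted p under 0.1 by edgeR's quasi-likelihood test, adjusted over every tested gene by the Benjamini-Hochberg method. P-values set a difference against the spread between the libraries of a group. In comparisons that span both tissues, the liver and brain of a mouse entered as separate libraries, and the mouse as a block was an alternative. Legends of the study also mention KO and control pairs, and because no label ties a KO mouse to a control mouse, genotypes were compared unpaired.

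Nemf, whose protein binds the large subunit with its stalled chain, was lower in the KO liver. In WT liver its level was 50.7 CPM in mouse B, 38.8 in mouse D and 45.8 in mouse E. In KO liver it was 27.8 CPM in mouse A, 22.9 in mouse C and 21.2 in mouse F. All 3 KO libraries lay below all 3 WT libraries, and the highest KO value was well under the lowest WT value. The means were 24.0 ± 3.39 in KO and 45.1 ± 5.96 CPM in WT (SD, n = 3), 46.8% lower in KO, with a log2 fold change of -0.91 (SE 0.15). Among the 14075 genes tested in liver, 384 (2.73%) had a lower log2 fold change than Nemf. Since this contrast chose the set, its values are a description. The log2 fold change of Nemf lay between -1.03 and -0.81 over 13 alternatives, among them leaving out each mouse in turn. In bulk tissue, less RNA per cell and fewer cells of a type cannot be told apart.

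**Figure D1:**
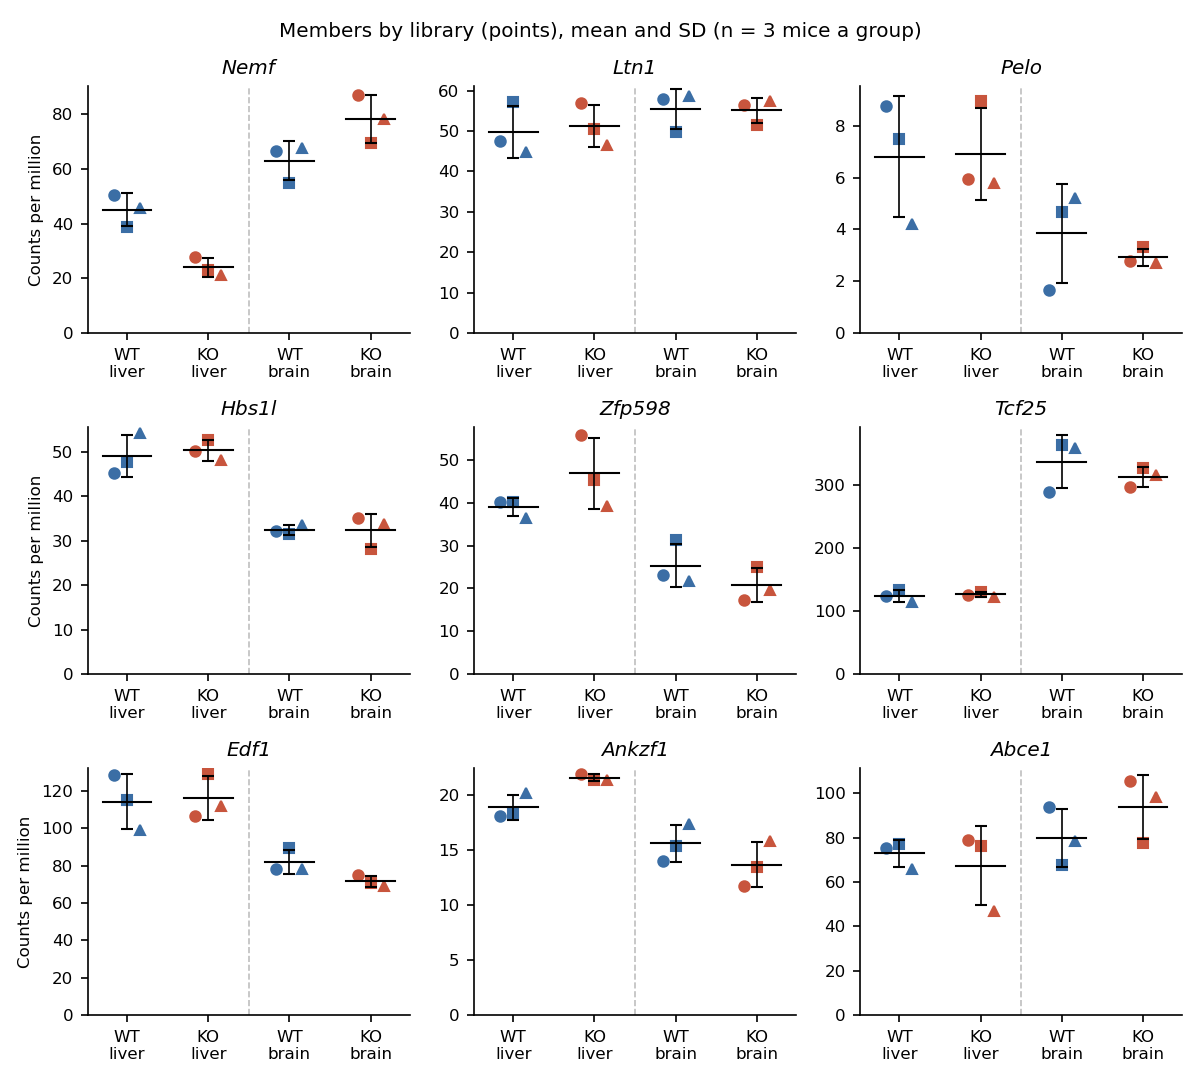
CPM of each member (y axis, from 0) in the 12 libraries, by group (x axis). Points are libraries, in blue for WT and red for KO (circles mice A and B, squares C and D, triangles E and F), bars are means with SD (n = 3), and libraries were scaled within a tissue, so heights compare within liver or within brain; Nemf is lower in every KO liver and higher in every KO brain.

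Genes for the partners of NEMF on the large subunit had overlapping groups in liver, with the exception of Ankzf1. Ltn1 had 47.5, 57.1 and 44.8 CPM in WT liver (mice B, D and E) and 56.9, 50.4 and 46.4 CPM in KO liver (mice A, C and F). The groups overlapped, and the log2 fold change was 0.04 (SE 0.14). For Tcf25 it was 0.03 (SE 0.12), from 124 ± 9.15 CPM in WT to 127 ± 4.21 in KO (SD, n = 3). Ankzf1, the chain-releasing hydrolase, had 18.1, 18.4 and 20.2 CPM in WT liver and 22.0, 21.4 and 21.4 CPM in KO liver. Each KO library was above each WT library, by a small margin, and the log2 fold change was 0.19 (SE 0.12).

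The rescue pair and the splitting ATPase had overlapping groups in liver. Pelo was the least counted member, at 4.20 to 8.75 CPM in WT and 5.79 to 8.96 in KO, with a log2 fold change of 0.02 (SE 0.30). Hbs1l had a log2 fold change of 0.04 (SE 0.12). Abce1, which also recycles ribosomes after normal termination, had 75.3, 77.3 and 66.1 CPM in WT liver and 78.8, 76.5 and 46.9 CPM in KO liver. Mouse F alone was low, and the log2 fold change of Abce1 was -0.11 (SE 0.20). Of the collision sensors, Zfp598 had 40.2, 40.1 and 36.6 CPM in WT and 55.8, 45.4 and 39.4 CPM in KO. Mouse F lay within the WT range and mice A and C above it, and the log2 fold change was 0.27 (SE 0.15), or 0.12 without mouse A. For Edf1 it was 0.02 (SE 0.15).

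The 8 members other than Nemf thus had liver log2 fold changes from -0.11 (Abce1) to 0.27 (Zfp598), with a median of 0.03. The median of all 9 was 0.03, with 2 lower and 7 higher in KO, and that of all genes tested was -0.0024. These directions were not stable: Abce1, Edf1, Hbs1l, Ltn1, Pelo and Tcf25 changed sign under at least 1 alternative, and Nemf, Zfp598 and Ankzf1 under none of 13. KO and WT libraries did not overlap for 2 of 9, Nemf and Ankzf1, which is the case for 12.9% of all genes tested. edgeR called 0 of 9 members and 0.0% of all genes in liver. At an unadjusted p under 0.05 the counts were 1 of 9, with 7.33% of all genes, and DESeq2 called 1 of 9, with 1.1% of all genes. Nothing is read from these counts, since the members were chosen on this contrast.

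**Figure D2:**
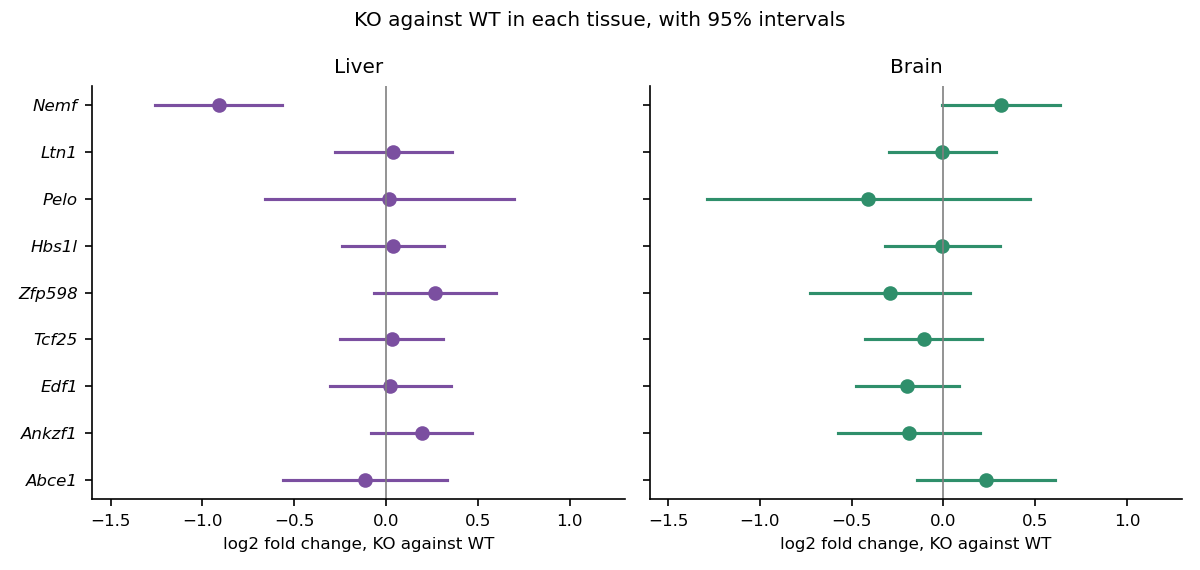
Log2 fold change of KO against WT for each member in liver (left) and brain (right). Points are edgeR estimates and lines their 95% intervals (n = 3 against 3 mice). Nemf sits at -0.91 in liver, the contrast that chose the set, and at 0.31 in brain, where its interval includes 0. The intervals of the other 8 members include 0 in both tissues.

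In the brain, which the rule for Nemf did not name although brain results were known when the set was chosen, Nemf lay in the other direction. Its level was 66.7 CPM in mouse B, 54.9 in mouse D and 67.7 in mouse E (WT), and 87.1 CPM in mouse A, 69.6 in mouse C and 78.3 in mouse F (KO). All 3 KO libraries were above all 3 WT libraries, although mouse C exceeded mouse E by a small margin. The means were 78.3 ± 8.72 in KO and 63.1 ± 7.09 CPM in WT (SD, n = 3). The log2 fold change of Nemf was 0.31 (SE 0.14, 95% interval -0.0099 to 0.63), with an adjusted p of 0.462 by edgeR, so no rise was called. The exact permutation test of the CPM values gave a two-sided p of 0.1, the smallest that 3 against 3 allows.

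Edf1, the small protein that binds collided ribosomes, was the other member without overlap in brain. It had 78.4, 89.4 and 78.1 CPM in WT (mice B, D and E) and 74.8, 71.0 and 68.9 CPM in KO (mice A, C and F). The KO libraries were all below the WT libraries, and Edf1 had a difference of -0.20 on the log2 scale (SE 0.12, 95% interval -0.47 to 0.08, edgeR adjusted p = 0.557). The two-sided exact permutation p was again 0.1. Non-overlap occurred for 16.3% of all 17188 genes tested in brain, against 2 of 9 members.

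Zfp598, the ligase that marks collided ribosomes, had 23.2, 31.2 and 21.7 CPM in WT brain and 17.4, 25.1 and 19.7 CPM in KO brain. The groups overlapped, with mouse D highest, and the log2 fold change was -0.29 (SE 0.19, 95% interval -0.73 to 0.15, edgeR adjusted p = 0.575). Abce1 had 93.6, 67.8 and 78.3 CPM in WT and 105, 77.6 and 98.5 CPM in KO, which is a difference of 0.23 on the log2 scale (SE 0.17, 95% interval -0.14 to 0.61, edgeR adjusted p = 0.594). Ankzf1 had a log2 fold change of -0.19 (SE 0.17) and Tcf25 one of -0.11 (SE 0.14), with 95% intervals of -0.57 to 0.20 and -0.43 to 0.21. For Ltn1 and Hbs1l the estimates were nearest to 0. The 95% interval of Ltn1 was -0.30 to 0.28 and that of Hbs1l was -0.32 to 0.31. Pelo, with 26 to 104 counts a library in brain, had the widest interval, -1.29 to 0.47 around -0.41 (SE 0.39), and single mice moved it, to -0.75 without mouse B, -0.26 without mouse D and -0.12 without mouse E. Zfp598 in brain moved likewise, to -0.18 without mouse A, -0.45 without mouse C and -0.12 without mouse D.

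edgeR called 0 of 9 members in brain, where 0.064% of all genes were called. At an unadjusted p under 0.05 it was 0 of 9, with 11.0% of all genes, and DESeq2 called 0 of 9, with 1.58% of all genes. Over the members, 7 were lower and 2 (Nemf and Abce1) higher in the KO brain, with a median log2 fold change of -0.11, beside -0.0016 over all genes tested. The members' median ran from -0.20 (without mouse B) to -0.052 (without mouse E) when each mouse was left out. Marker sums of brain regions and the share of mitochondrial rRNA moved with genotype in brain. Summed markers of the olfactory bulb (6 genes) were 28.1 to 42.4 CPM in KO and 4.35 to 9.47 in WT, those of the cerebellum (6 genes) 138 to 380 in KO and 569 to 895 in WT, and those of the choroid plexus (5 genes) 88.4 to 143 in KO and 176 to 305 in WT, with none of these genes at 0 in either group. Mitochondrial rRNA took 21.4 to 31.6% of counts in KO brain and 7.63 to 17.7% in WT brain. In liver it took 7.36 to 8.66% in KO and 10.7 to 16.9% in WT. The part of these measures in the members' values was not tested.

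Log2 fold changes of KO against WT also followed GC content, in opposite directions in the 2 tissues. With a gene's tissue mean taken from log2 CPM, each library had a slope per 10% GC. It was 0.0080 to 0.11 in KO liver and -0.13 to -0.031 in WT liver. In brain the slopes of the groups overlapped, at -0.29 to 0.085 in KO and -0.12 to 0.36 in WT. Mouse A (KO) had the lowest and mouse D (WT) the highest. GC content is that of a gene's longest annotated transcript. Nemf, with 42.4% GC, had a liver log2 fold change of -0.91, where the 1165 genes within 1% of its GC content had a median of -0.11. In brain those genes (1364 tested) had a median of 0.14, and Nemf had 0.31. Abce1, the member with the lowest GC content (40.3%), lay near such genes in both tissues, at -0.11 beside -0.13 in liver and 0.23 beside 0.21 in brain. Ltn1, with 42.6% GC, lay off the median of such genes in both tissues, at 0.04 beside -0.11 in liver and at -0.0069 beside 0.14 in brain. Edf1 (57.7% GC) in brain was at -0.20 beside a median of -0.18. Zfp598, the most GC-rich member (59.4%), was at 0.27 beside 0.11 in liver and at -0.29 beside -0.18 in brain. Fitting an offset for GC content and length in each library left Nemf at -0.85 (SE 0.14) in liver and at 0.20 (SE 0.11) in brain. In liver the offset moved Abce1 from -0.11 to -0.012, Zfp598 from 0.27 to 0.17 and Ltn1 from 0.04 to 0.099, and it turned Tcf25 to -0.022 and Pelo to -0.0071. In brain it moved Abce1 from 0.23 to 0.038, Zfp598 from -0.29 to -0.10, Edf1 from -0.20 to -0.087, Ankzf1 from -0.19 to -0.084 and Pelo from -0.41 to -0.27. Tcf25 and Hbs1l turned to 0.060 and 0.044, and Ltn1 moved to -0.11.

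**Figure D3:**
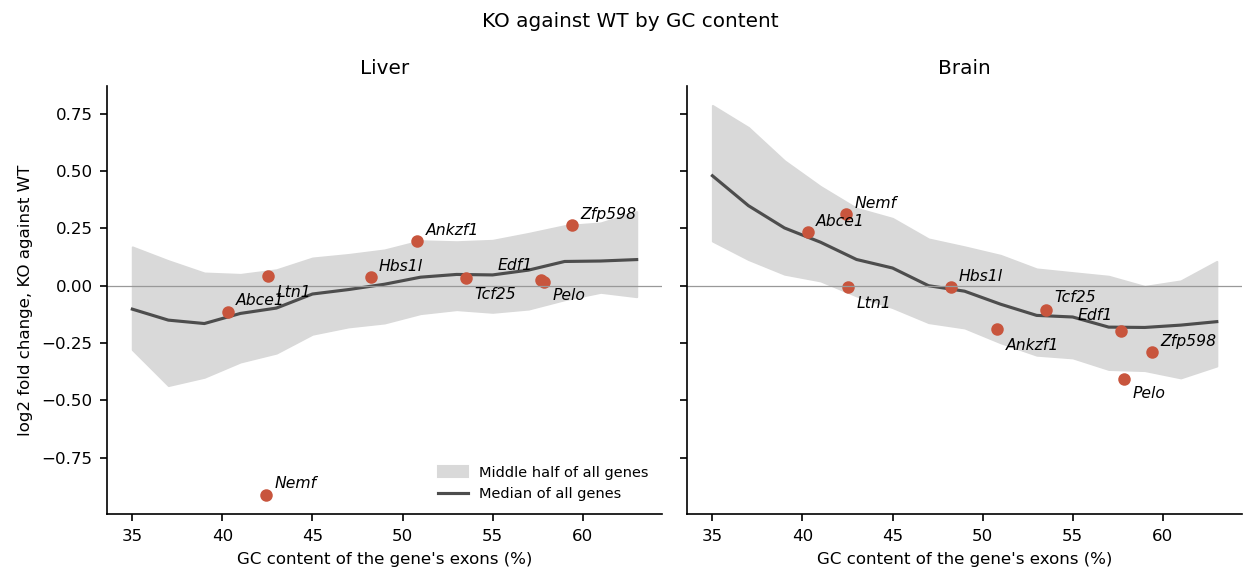
Log2 fold change of KO against WT (y axis) by GC content of a gene's longest annotated transcript in percent (x axis, labelled as exons), in liver (left) and brain (right). The line is the median and the band the middle 50% of all genes in steps of 2% GC, and red points are the members; in brain Nemf and Abce1 lie above 0 at low GC content and Zfp598 and Pelo below 0 at high GC content, and in liver Nemf lies far below the band.

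Set side by side, the liver effect minus the brain effect on the log2 scale was -1.19 (SE 0.22) for Nemf, the largest of the members. Zfp598 had a difference of 0.59 (SE 0.26), followed by 0.46 (SE 0.54) for Pelo, 0.42 (SE 0.21) for Ankzf1, 0.25 (SE 0.20) for Edf1 and 0.17 (SE 0.19) for Tcf25. Ltn1 and Hbs1l both had 0.08 (SE 0.20 and 0.18), and Abce1 had -0.31 (SE 0.28). edgeR called 0 of 9 members and 0.0% of all 18944 genes, with 2 of 9 members and 10.6% of all genes at an unadjusted p under 0.05. DESeq2 called 1 of 9 (2.08% of all genes), and the fit that pairs the tissues of a mouse as a block called 1 of 9 (0.359%). With the GC and length offset added to the block, 0 of 9 were called (0.169% of all genes), and the difference of Nemf was -1.06 (SE 0.20). Without mouse A the difference of Zfp598 was 0.34, and that of Pelo was 1.05 without mouse B and -0.069 without mouse E. Ltn1 went to 0.25 without mouse D and -0.033 without mouse E, Hbs1l to -0.041 without mouse C, Tcf25 to 0.29 without mouse B and 0.072 without mouse E, and Edf1 to 0.39 without mouse B. The fit with block and offset put Zfp598 at 0.28, Ankzf1 at 0.26, Ltn1 at 0.21, Pelo at 0.19, Edf1 at 0.076, Hbs1l at 0.00044 and Tcf25 at -0.062. Abce1 ran from -0.53 to -0.073 over 13 alternatives. This difference contains the liver contrast behind the choice, so nothing is read from the counts.

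Levels per length, in FPKM over all annotated exons with the 12 libraries scaled together, ordered the members differently in liver and brain. Edf1 was the highest in WT liver, at 109 ± 15.0 FPKM (SD, n = 3), followed by Tcf25 at 28.9 ± 2.09, Abce1 at 15.2 ± 1.29, Zfp598 at 12.6 ± 0.730, Hbs1l at 10.2 ± 0.911 and Ltn1 at 7.97 ± 0.989. Each of these was separated from the next without overlap. Nemf at 5.37 ± 0.765, Pelo at 5.36 ± 1.88 and Ankzf1 at 4.61 ± 0.261 overlapped at the bottom. In KO liver Nemf, at 2.91 ± 0.411 FPKM, lay alone below Ankzf1 at 5.39 ± 0.0829. The median over the genes tested was 3.53 FPKM in WT liver and 2.63 in WT brain.

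In WT brain Tcf25 (49.4 ± 6.39 FPKM) and Edf1 (49.1 ± 4.11) overlapped at the top. Abce1 followed at 10.5 ± 1.65. Ltn1 at 5.56 ± 0.471, Zfp598 at 5.14 ± 1.07, Nemf at 4.72 ± 0.508 and Hbs1l at 4.23 ± 0.131 overlapped from one to the next, and Hbs1l was separated from Ankzf1. Ankzf1 (2.40 ± 0.265) and Pelo (1.90 ± 0.945) were the lowest and overlapped. In KO brain Nemf stood at 5.84 ± 0.633 FPKM, after Abce1 and overlapping Ltn1 (5.52 ± 0.301). Long annotated 3′ ends or rare isoforms lower a level per length, so the order holds for the annotation used.

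**Figure D4:**
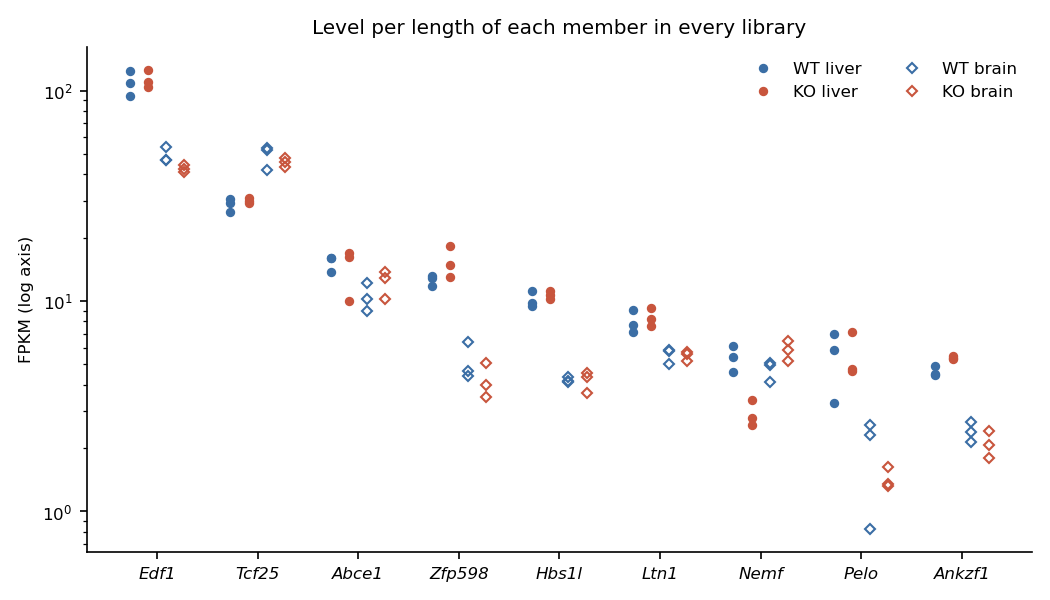
FPKM of each member (y axis, log scale) in every library, with members ordered by their mean in WT liver (x axis). Filled circles are liver and open diamonds brain, blue WT and red KO; Edf1 and Tcf25 are the highest in each group, and Nemf is the lowest member in KO liver.

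Between tissues, averaged over genotypes, edgeR called all 9 members, beside 84.9% of all 18944 genes tested. The count of members was 8 with DESeq2, without mouse C and in the WT libraries alone. Higher in liver were 7 of 9, beside 37.9% of all genes. Log2 fold changes below are liver against brain. The median over the members was 1.15 and that over all genes -0.22. With RLE in place of TMM scaling the median over all genes moved to -0.32 and that over the members to 1.05.

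The largest differences were those of the rescue pair and the collision sensors. Pelo was 1.71 higher in liver (SE 0.27, edgeR adjusted p = 4.23e-05), Zfp598 1.58 higher (SE 0.14, adjusted p = 5.71e-08), Hbs1l 1.31 higher (SE 0.094, adjusted p = 8.00e-09) and Edf1 1.28 higher (SE 0.10, adjusted p = 2.21e-08), all on the log2 scale. The FPKM values of these genes did not overlap between liver and brain within WT or within KO. Hbs1l, for example, ranged from 9.51 to 11.2 FPKM in WT liver and from 4.13 to 4.38 in WT brain. Abce1, the splitting ATPase, had the smallest difference of the 9 in the average over genotypes, at 0.38 higher (SE 0.14, edgeR adjusted p = 0.0206). Its call was lost with DESeq2 and without mouse C. In WT libraries alone the smallest difference was that of Nemf, at 0.19.

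Of the factors that handle the unfinished chain, Ankzf1 was 1.15 higher in liver (SE 0.11, edgeR adjusted p = 1.68e-07) and Ltn1 0.56 higher (SE 0.098, adjusted p = 0.000104). Tcf25 was lower in liver by -0.69 (SE 0.097, adjusted p = 1.20e-05), with 26.6 to 30.7 FPKM in WT liver and 42.0 to 53.7 in WT brain. Nemf was lower in liver by -0.41 (SE 0.11, adjusted p = 0.00381), a mean that takes in the KO livers. In WT libraries alone the value for Nemf was 0.19 (SE 0.17, edgeR adjusted p = 0.307), and edgeR called the other 8 members there, each in the direction given above. The WT values of Nemf were 6.11, 4.58 and 5.43 FPKM in liver and 4.96, 4.13 and 5.06 FPKM in brain (mice B, D and E). They overlapped between the tissues, although within each of these mice the liver value was the higher. Pairing by mouse was not tested in WT libraries alone.

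**Figure D5:**
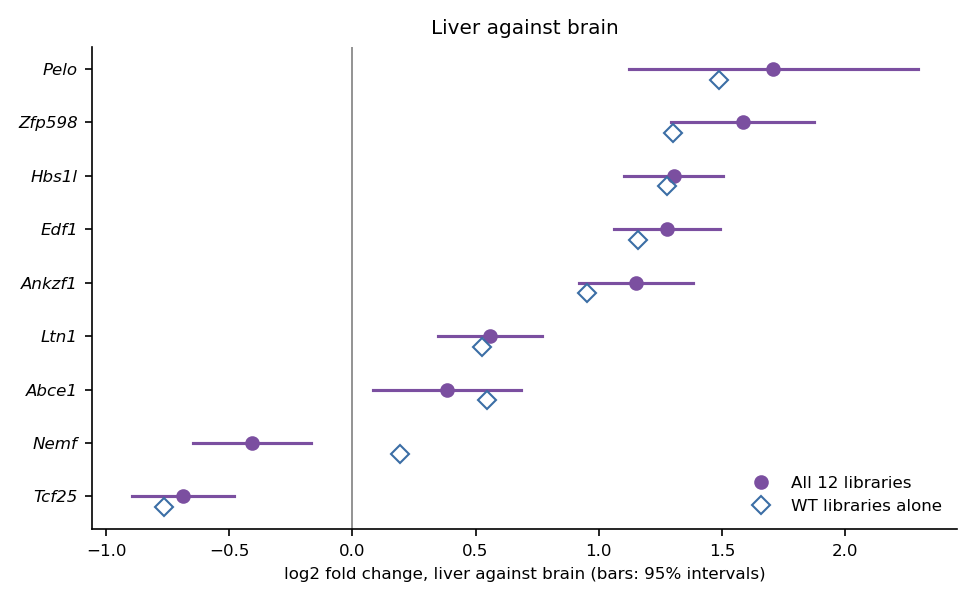
Log2 fold change of liver against brain for each member. Filled points with lines are estimates and 95% intervals over all 12 libraries, and open diamonds are the estimates in the 6 WT libraries; 7 members lie to the right of 0, Tcf25 to the left in both, and Nemf changes side between them.

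Other genes of the pathway were taken from 6 lists with 42 genes, of which 40 were matched. In liver, edgeR called 0 of the 39 tested in KO against WT, as did DESeq2, and 1 had an unadjusted p under 0.05. Of all genes in liver, 0.0% and 1.1% were called by these tools and 7.33% had such a p, so the lists do not exceed the background. The gene was Gcn1l1, the partner of the stress kinase GCN2, 0.35 higher in KO on the log2 scale (SE 0.13, edgeR adjusted p = 0.584). The next was Mtrf1, a mitochondrial release factor, at -0.46 (SE 0.21, adjusted p = 0.698). In brain 0 of 40 were called by either tool, with 1 higher and 1 lower at an unadjusted p under 0.05. Over all genes in brain the shares were 0.064% by edgeR, 1.58% by DESeq2 and 11.0% at that p, so these counts do not exceed the background either. The 2 genes, named for their smallest p, were Ascc3, the helicase of the ASC-1 complex that splits collided ribosomes, at 0.49 (SE 0.19, adjusted p = 0.411), and Usp21, a deubiquitinase of ribosomal proteins, at -0.65 (SE 0.27, adjusted p = 0.428). The median log2 fold change over the lists was -0.04 in liver and -0.04 in brain.

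Between tissues, of 40 genes in the lists, 25 were higher in liver, 7 lower and 8 not called, beside 84.9% of all genes called and 37.9% higher in liver. Among the 12 genes of collision sensing and signalling, 7 were higher and 2 lower. Map3k20, the kinase that signals collisions, was 1.73 higher (SE 0.12) and Rack1, a protein of the small subunit, 1.14 higher (SE 0.11), and Eif4e2, a cap-binding repressor, had a 95% interval of 0.79 to 1.22, whereas Mkrn1, a ligase acting at stalls in poly(A), was at -1.12 (SE 0.11). All 4 genes of the ASC-1 complex were higher in liver, from 0.50 (Ascc3) to 1.61 (Ascc2).

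Of the 5 release factors and rescue GTPases, 3 were higher and 1 lower. The release factors Gspt1 and Etf1 were 1.06 (SE 0.12) and 0.92 (SE 0.12) higher and Gtpbp2 was 0.62 (SE 0.12) higher. Gspt2, the retrogene copy of Gspt1, was at -4.65 (SE 0.36), with 0.205 ± 0.139 FPKM in WT liver and 4.82 ± 0.0916 in WT brain (SD, n = 3). Among 9 genes of nascent chain release and breakdown, 5 were higher and 3 lower. Vcp, the ATPase that extracts ubiquitinated chains, was 1.65 higher (SE 0.14) and its cofactor Nploc4 1.52 higher (SE 0.12), while Trnt1, which adds the CCA end to tRNAs, was at -0.70 (SE 0.12) and the tRNA repair enzyme Elac1 at -0.73 (SE 0.14).

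For clearance of the stalled mRNA, 4 of 7 genes were higher and 1 lower. N4bp2, related to an endonuclease of stalled mRNAs, was 2.24 higher (SE 0.12). The Ski complex genes Wdr61 and Skiv2l were 1.57 (SE 0.093) and 1.43 (SE 0.15) higher, and the exosome nuclease Exosc10 0.39 higher (SE 0.091). Of the 3 matched mitochondrial rescue genes, Mrpl58 was 0.45 higher (SE 0.093) and Mtrf1 0.52 higher (SE 0.16). Each gene named here was called by edgeR, and the 40 genes had a median of 0.52, beside -0.22 over all genes.

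Other genes followed Nemf more closely than any other member did. Over the 12 libraries, with the mean of the tissue taken from log2 CPM, the 5 genes most like Nemf among 7983 were 2010315B03Rik (Pearson r 0.97), Wbp4 (0.97), Nampt (0.96), Cacybp (0.96) and Hspa4l (0.96). Wbp4 encodes a splicing factor, Nampt an enzyme of NAD synthesis and Hspa4l a heat shock protein of the Hsp110 family. The GC content of these genes was 37.7% to 46.8%. All 5 were lower in every KO liver than in any WT liver, and 12.9% of all genes tested in liver had groups without overlap. Since the 5 were picked for likeness to Nemf over these same libraries, this separation largely follows from the pick. Cacybp, for one, had 14.9 ± 2.92 CPM in KO and 31.7 ± 5.16 in WT liver, and 87.1 ± 17.1 in KO and 58.2 ± 14.3 in WT brain (SD, n = 3). Hspa4l had 200 ± 13.2 CPM in KO and 182 ± 18.3 in WT brain. In brain all 5 had a higher mean in KO, but the groups overlapped for all except Wbp4. Among members, Abce1 came nearest to Nemf (r 0.47, rank 915), and the remaining 7 had r from -0.58 (Ankzf1) to -0.13 (Ltn1). The libraries share depth, GC trend and genotype, so these values describe likeness only.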

How the data were processed

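The deposited table holds raw counts per gene, made by the authors from stranded total RNA libraries (100 bp single-end reads): Trimmomatic, STAR 2.7.3a to mm10, and featureCounts in reverse-stranded mode over exons. Versions come from the submitters' processing notes. Groups follow the labels.

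Counts were fitted with edgeR 4.0.16 in R 4.3.3 (TMM, filterByExpr, robust quasi-likelihood test, Benjamini-Hochberg adjustment, calls at an adjusted p under 0.1): KO against WT within each tissue, and liver against brain and the difference in genotype effect over all 12 libraries. SE were derived from the F statistic. CPM and FPKM use TMM-scaled library sizes. Scripts were tested on simulated data. Alternatives were DESeq2 1.42.0, RLE scaling, no filter, each mouse left out, mice E and F left out, a covariate for Y-linked transcripts, all libraries in 1 fit, a GC and length offset, WT libraries alone, the mouse as a block, and TPM.

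The labels pair the liver and brain of each mouse. The correlation of a mouse's deviations from the group means between its tissues ran from -0.039 to 0.14 over 12574 genes.

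The members and lists were chosen with earlier results of these data known. All 9 members are named, with at most 4 called genes per list and comparison by p, the 2 list genes of smallest p where none was called, the 5 genes most like Nemf with at least 5 CPM in each tissue, and Mettl5. Counting limits the precision of Pelo most, with 26 to 170 counts a library. Intervals rest on the replicates.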

Additional observations from a re-analysis of the deposited data

Results flagged for a closer look

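The genotype effect on Nemf in liver minus that in brain was -1.19 on the log2 scale with the tissues of a mouse paired as a block. It was flagged because the edgeR adjusted p of that fit, 0.0589, was under 0.1. Without the block the edgeR adjusted p was 0.132, and with the block and the GC and length offset it was 0.103. Nemf was lower in all 3 KO livers and higher in all 3 KO brains. Nemf was chosen by its liver value, so the difference is a description, and its cause was not tested.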

How the results depend on the processing

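In liver, the number of members called was 0 by edgeR and 1 with DESeq2, without a filter on low counts and with the Y-linked covariate, and 0 to 1 when each mouse was left out, with 1 without mouse D. For the difference between tissues it was 0, and 1 with DESeq2, without the filter and with the replicate block, and again 0 to 1 when each mouse was left out, with 1 without mouse D. The other 44 counts of members, brain and tissue included, stayed within 1.5 times. With the replicate block 9 members were called between tissues, and the block with the GC and length offset called 0 for the difference between tissues, where it put Tcf25 at -0.062. Apart from that difference, the block alone changed no call of a member. Nemf reversed between tissues in WT libraries alone, to 0.19. Estimates near 0 in KO against WT brain also reversed. Ltn1 ran from -0.084 to 0.044 when each mouse was left out and was 0.0085 without mice E and F. Hbs1l ran from -0.071 to 0.083 and was 0.044 with the GC and length offset, which put Tcf25 at 0.060. In KO against WT liver 6 of 9 members changed sign under an alternative, among them Abce1, from -0.11 to 0.092 without mouse F, Pelo, from -0.24 to 0.24 over the alternatives, Edf1, down to -0.071, and Ltn1, down to -0.039. The members' median there ran from -0.030 (without mouse E) to 0.092. With each mouse left out in turn, KO against WT brain also ran from 0.12 to 0.36 for Abce1, from -0.30 to -0.092 for Ankzf1 and from -0.20 to -0.052 for Tcf25, and the difference between tissues from -0.53 to -0.073 for Abce1. Abce1 between tissues was 0.28 with DESeq2 (adjusted p = 0.105) and 0.27 without mouse C (edgeR adjusted p = 0.116). Causes were not tested.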

Other observations

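Klhdc2, the gene whose 3′ end meets that of Nemf on the opposite strand, was looked up after the values of Nemf were seen. In liver it had 57.4 ± 10.2 CPM in KO and 47.3 ± 0.480 in WT, and in brain 213 ± 9.05 in KO and 248 ± 29.2 in WT (SD, n = 3). The KO libraries were all higher in liver and all lower in brain, the opposite of Nemf in each tissue.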
